A study of Arabidopsis thaliana with 30 samples.

Results

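Of 22746 probe sets of the ATH1 array, 67 were chosen for their untreated level and their fall after 1 h of high light at 1000 µE. Each had fallen at least 4-fold on the log2(signal + 1) scale in all 5 genotypes measured, and these 67 members are described here. The members were chosen by a rule on the group means of log2(signal + 1). The mean after high light minus the untreated mean had to be -2 or lower in each genotype, and the untreated mean had to be 7 or higher in each, a signal of about 127. Probe sets of COR27, AT4G33980, AT1G07050 and EXPA8 also passed and were left out by name, and with them the count is 71. A further 13 probe sets had the falls but an untreated mean under 7 in a genotype. The annotation used here gives 32 of the members 1 gene, 2 members several genes and 33 members none, and members without a single gene are given by probe set ID.

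The plants were Arabidopsis thaliana, grown on soil under long days for 21 days, and total RNA came from their leaves. The lines labelled Atwrky40 KO (the WRKY40 knockout), Atwrky40.4 OE (the WRKY40 overexpressor), Atwrky63 KO (the WRKY63 knockout) and Atwrky63.3 OE (the WRKY63 overexpressor) were set beside the wild type Col-0, each with 3 arrays after high light and 3 arrays of untreated plants, 30 arrays in all. The series' design text names WRKY60 where every sample label names WRKY63, and the labels were followed. Each overexpressor and knockout appears under 1 line name. The promoter of the overexpressors and the parental accession of the knockouts are not stated in the labels, and the array probes were designed for Col-0. No probe set carries the name WRKY40 or WRKY63 in the annotation, so the lines were not checked on their own transcripts. The labels do not say whether replicates were separate plants, so the spread behind each p-value may be technical.

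Light above what photosynthesis can use damages the photosystems and warms the leaf, and leaf transcripts of chaperones and antioxidant enzymes are known to rise within the first hour. Some transcripts tied to growth, sugar status and the daily clock are known to decline after a shift to strong light, and others are not. A transcript's level reflects both its synthesis and its decay, and an array measures only the level. WRKY proteins are plant transcription factors that bind the W-box in promoters, and WRKY40 is best known as a repressor in defence and stress signalling. In leaf tissue, fewer cells of a type and less RNA per cell cannot be told apart.

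Of the leaf mesophyll markers 2 of 9 were named. RCA, the activase of Rubisco, and LHCB4.2, a light-harvesting protein, had summed signals of 36707 to 53130 on the high light arrays, against 40855 to 59294 on the untreated arrays. LHCB4.2 was called lower after high light by limma in all 5 genotypes, by -0.55 to -0.29 (adjusted p = 0.000106 to 0.0196), and RCA was called higher in the WRKY63 knockout (0.34, adjusted p = 0.0212). The root marker PYK10, 1 of 5 listed, ran from 74.1 to 807 after high light and from 153 to 755 without treatment, and its change of -1.82 in Col-0 passed limma's test (adjusted p = 0.00404). FMA, 1 of 4 guard cell markers, ran from 116 to 251 after high light and from 126 to 249 without treatment. Lists for phloem, epidermis, trichome and dividing cells held no named probe set. The part of other cell types in the results was not tested.

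In every genotype the high light arrays of all 67 members lay below the untreated arrays without overlap. Among the 15922 probe sets kept by a filter on low signals the same held for 35.9% (WRKY40 knockout), 33.3% (WRKY40 overexpressor), 41.4% (WRKY63 knockout), 38.1% (WRKY63 overexpressor) and 33.6% (Col-0), and for 16.2% in all 5 genotypes at once. Because the change with high light chose the members, it is given as a description and without a test. The members' median change on the log2 scale was -2.66 (WRKY40 knockout), -2.65 (WRKY40 overexpressor), -3.02 (WRKY63 knockout), -3.03 (WRKY63 overexpressor) and -3.04 (Col-0). The median over all kept probe sets was -0.20, -0.17, -0.22, -0.25 and -0.18 in the same order. Over the same genotypes, the share of the untreated signal left after high light had a median of 15.7%, 16.3%, 12.4%, 14.5% and 12.3%.

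The falls differed in depth among the members. Averaged over the 5 genotypes, 7 members fell by 4 or more log2 units, 22 by 3 to 4 and 38 by less than 3, with a median change of -2.90. In 62 of the 67 members all 15 high light arrays lay below all 15 untreated arrays even across genotypes, against 8.07% of all kept probe sets. Since the rule chose on this change, nothing is read from the difference. The exceptions were AT3G62950, AT1G25230, 245265_at, 247524_at and 263953_at. High light brought the mean signal of 19 members below 46.7, the signal of the filter, in at least 1 genotype, and of 1 member (262096_at) in all 5. Falls that end at so low a signal depend on the pseudocount. With a pseudocount of 16 in place of 1 the rule found 56 probe sets, all of them members. Within a group the log2 SD of the members had a median of 0.38 after high light and 0.22 without treatment, against 0.20 and 0.19 for all kept probe sets. The plot of changes by genotype shows each member's 5 values.

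**Figure D1:**
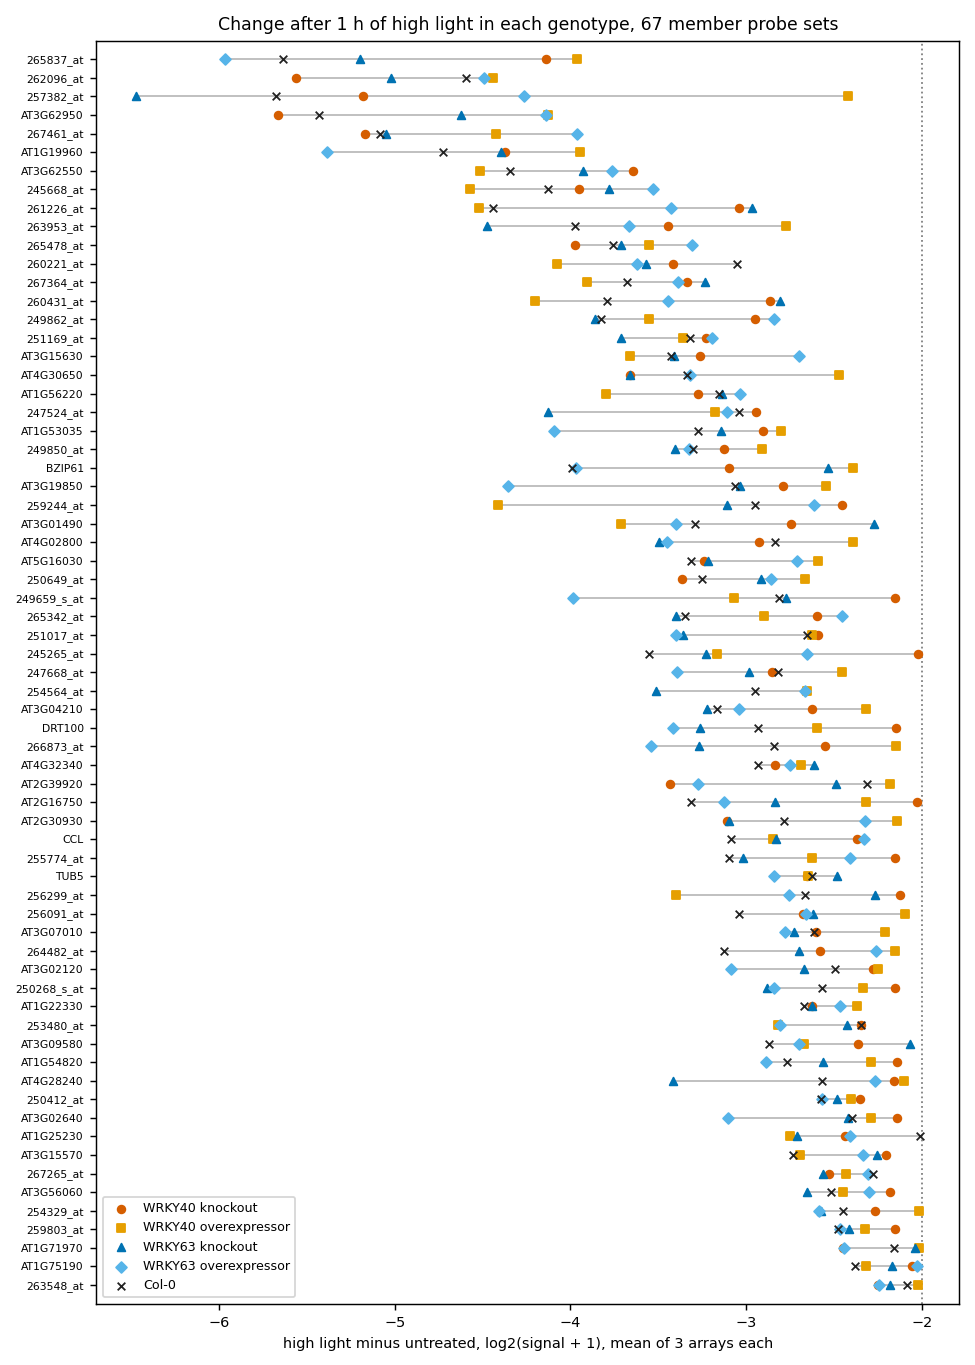
Change of log2(signal + 1) after 1 h of high light (high light mean minus untreated mean, 3 arrays each; x axis) for each of the 67 members (rows, ordered by their mean over the 5 genotypes), with 1 marker per genotype and a grey line over their range. The dotted line is the threshold of -2 that chose the members; changes run from -6.48 (257382_at, WRKY63 knockout) to -2.01, and 257382_at has the widest range.

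Members from families linked to stress held some of the deepest falls. AT3G62950, of the plant-specific glutaredoxins, small enzymes that reduce disulfides, had signals of 1.06 to 117 (median 3.90) on the 15 high light arrays and 77.6 to 483 (median 249) on the 15 untreated arrays. Its changes were -5.67, -4.13, -4.62, -4.14 and -5.43, with both WRKY40 lines first (knockout, overexpressor), then both WRKY63 lines and then Col-0, the order used for every set of 5 values below. Its high light median is far below the filter signal, while the WRKY40 overexpressor had up to 117, and it was 1 of 2 members, with 262096_at, that did not pass the filter on low signals.

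AT3G62550, of the universal stress proteins, a family of small nucleotide-binding proteins, was bright without treatment and lost most of its signal. In the WRKY40 knockout it had 301, 1426 and 615 after high light, against 7728, 8231 and 8159 untreated. In the WRKY40 overexpressor it had 44.9, 1105 and 267, against 6522, 4558 and 5433. The high light arrays of these lines differed among themselves by far more than the untreated ones did. It had 410.2, 461 and 812 against 7798, 7748 and 9025 in the WRKY63 knockout and 142, 373 and 1718 against 5548, 6856 and 6056 in the WRKY63 overexpressor. Col-0 had 234, 444 and 523 against 6450.4, 7913 and 9033. Its changes were -3.65, -4.51, -3.93, -3.76 and -4.35, and in no genotype did the high light arrays overlap the untreated arrays.

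AT4G30650, of a family of small membrane proteins that respond to cold and salt, had high light arrays that lay close together in every group except the WRKY63 overexpressor. It had 535, 492 and 630.2 after high light against 6099, 7416 and 7492 untreated in the WRKY40 knockout, and 1623, 1739 and 1922 against 6334, 11555 and 12640.0 in the WRKY40 overexpressor. The WRKY63 knockout had 671, 726 and 693 against 6646, 10052 and 10314, and the WRKY63 overexpressor had 530.0, 672 and 946 against 6441, 6654 and 7844. Col-0 had 773, 745 and 826 against 6386, 8998 and 8514. All 3 high light arrays of the WRKY40 overexpressor lay above the 12 of the other genotypes, and its change of -2.47 was the smallest of the -3.66, -2.47, -3.66, -3.32 and -3.33.

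Such families held 4 other members. AT1G56220, of the dormancy and auxin associated proteins, had changes of -3.27, -3.80, -3.14, -3.03 and -3.16. AT3G04210, a TIR-NBS protein of the disease resistance type, had -2.62, -2.32, -3.22, -3.04 and -3.16. DRT100, a leucine-rich repeat protein first found through DNA damage tolerance, had -2.15, -2.60, -3.26, -3.42 and -2.93, and AT4G28240, of a wound-responsive family, had -2.16, -2.10, -3.42, -2.27 and -2.57. AT1G56220 had signals of 324 to 1124 (median 573) on the high light arrays and 4575 to 8072 (median 5655) on the untreated arrays.

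Regulators and signalling proteins made up 7 of the 32 named genes, with mean changes of -3.20 to -2.44. BZIP61, a basic leucine zipper transcription factor, had signals of 17.1 to 128 (median 46.4) after high light and 258 to 712 (median 493) without treatment, and changes of -3.10, -2.39, -2.54, -3.97 and -3.99. The protein kinase AT3G01490 had 10.4 to 59.8 (median 30.3) and 126 to 325 (median 197), with changes of -2.74, -3.71, -2.27, -3.40 and -3.29. AT3G19850, of the NPH3 family, whose founding member acts in growth towards blue light, had 7.63 to 99.2 (median 52.6) and 289 to 585 (median 385), with changes of -2.79, -2.54, -3.03, -4.36 and -3.07. These 3 members end at dim signals after high light. A second NPH3 family member, AT3G15570, had -2.21, -2.69, -2.25, -2.33 and -2.73. The kinase genes AT1G54820 and AT2G16750 had mean changes of -2.53 and -2.72, and AT1G22330, an RNA-binding protein, had -2.55.

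Averaged over the genotypes, the 3 cell wall and cytoskeleton genes among the members fell by less than 3 log2 units. The expansin gene EXPA8, left out by name, fell further, with changes of -3.45, -4.68, -4.46, -3.87 and -4.12. TUB5, a beta-tubulin and so a subunit of microtubules, had changes of -2.65, -2.65, -2.48, -2.84 and -2.62, AT3G07010, of the pectate lyases that cut wall pectin, had -2.60, -2.21, -2.73, -2.78 and -2.61, and AT3G02120, a hydroxyproline-rich glycoprotein, had -2.28, -2.25, -2.67, -3.09 and -2.50. TUB5 signals ran from 346 to 781 (median 606) after high light and from 2929.7 to 4501 (median 3680.1) without treatment. Enzymes were the acid phosphatase family members AT2G39920 (-2.74 on average) and AT1G25230 (-2.46), and the oxidoreductases AT3G09580 (-2.53) and AT3G56060 (-2.42).

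Among the 11 genes for which no role in the leaf is given here, AT1G19960 fell most. It had 178, 295 and 205 after high light against 4103, 4554 and 5185 untreated in the WRKY40 knockout, and 388, 594 and 757 against 7716, 9387 and 8831 in the WRKY40 overexpressor. It had 309, 307 and 432 against 5207, 7195 and 10234 in the WRKY63 knockout, 198, 207 and 180.2 against 8353, 7330.4 and 8900.3 in the WRKY63 overexpressor, and 456, 161 and 535 against 7621, 11182 and 8635 in Col-0. No high light array came near an untreated one, and the changes were -4.37, -3.94, -4.39, -5.38 and -4.73. AT3G15630 had changes of -3.26, -3.66, -3.41, -2.70 and -3.42, AT1G53035 had -2.90, -2.80, -3.14, -4.10 and -3.27, AT4G02800 had -2.93, -2.39, -3.50, -3.45 and -2.84 and AT5G16030 had -3.24, -2.59, -3.21, -2.71 and -3.32. AT1G53035 stood at 101, 5.64 and 74.3 on the high light arrays of the WRKY63 overexpressor, so its change of -4.10 there rests in part on 1 dim array. CCL, a transcript under clock control known for fast decay, fell to 1630.0 to 5300.3 (median 1967), against 13692 to 18263 (median 14817) untreated, with changes of -2.37, -2.84, -2.83, -2.33 and -3.08. AT4G32340, with tetratricopeptide repeats, and AT3G02640, AT2G30930, AT1G71970 and AT1G75190 had mean changes of -2.76, -2.47, -2.69, -2.22 and -2.19.

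**Figure D2:**
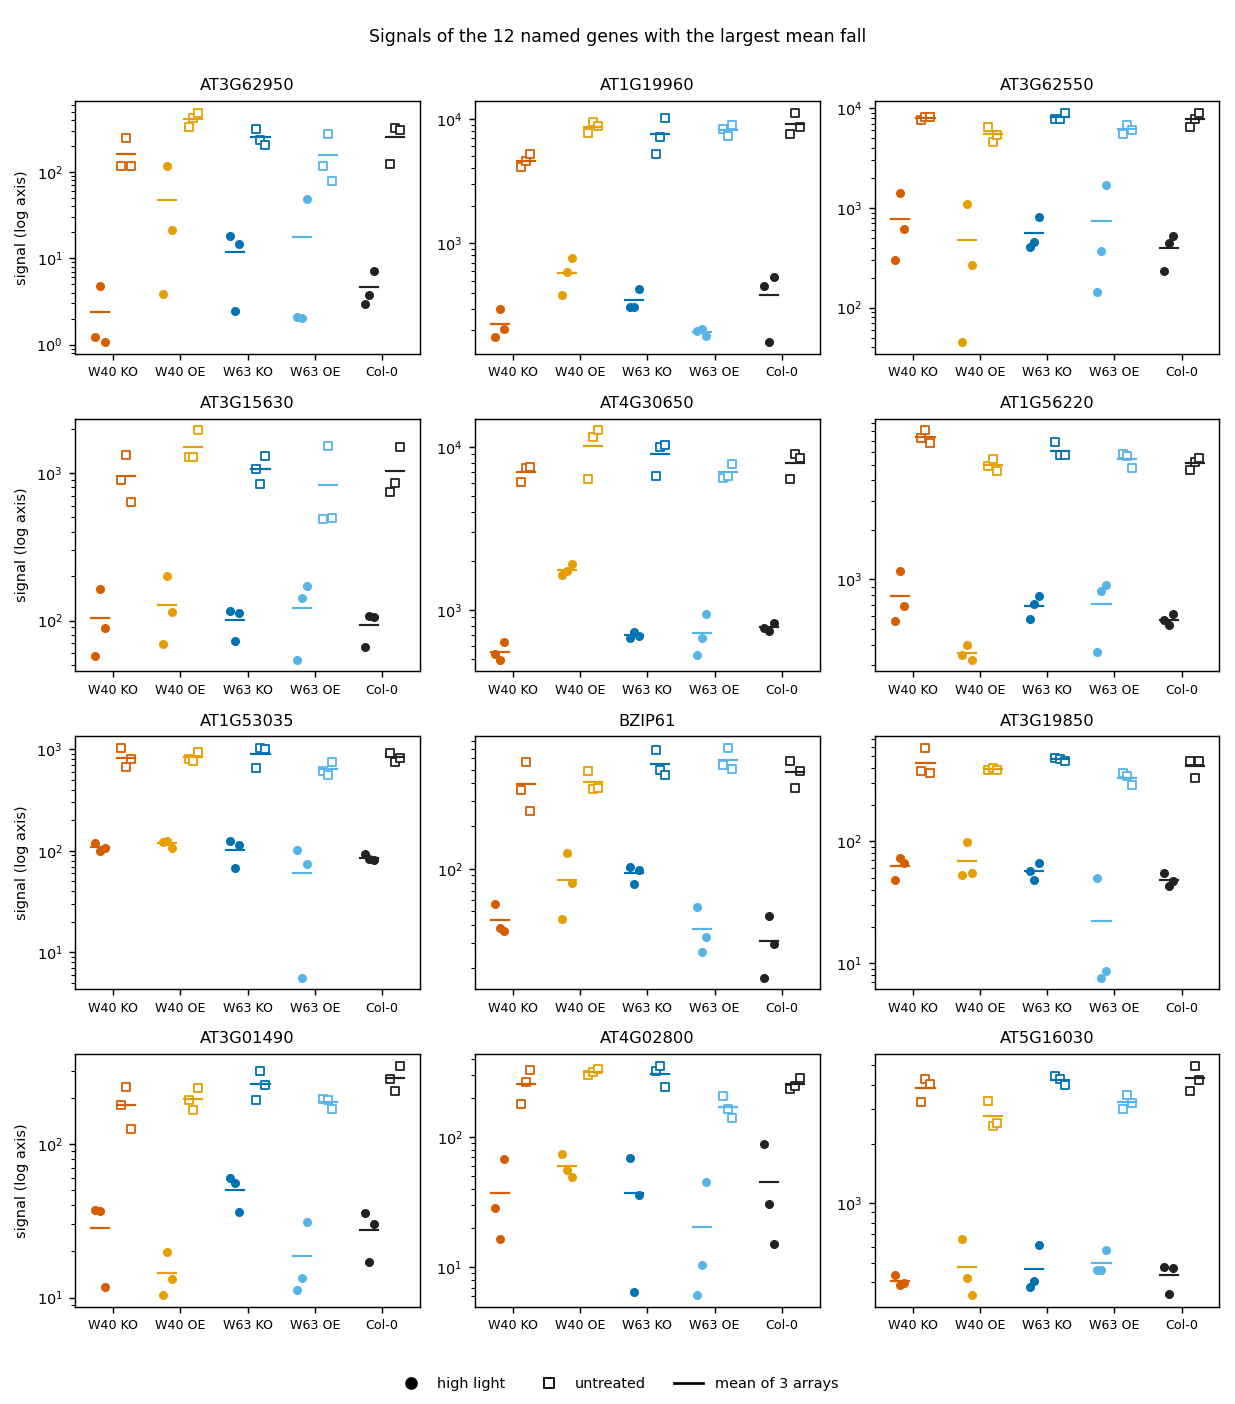
Signal (log axis) on every array for the 12 named genes with the largest mean fall; in each panel the 5 genotypes run from the lines to Col-0, filled circles are high light, open squares are untreated, and the line is the mean of 3 arrays. W40 and W63 stand for WRKY40 and WRKY63, KO for knockout and OE for overexpressor. All high light points lie below the untreated points of the same genotype, and the high light arrays of AT3G62950 and AT3G62550 have the highest mean log2 SD.

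The 35 members given by ID had mean changes of -4.98 to -2.16, and 17 of them fell by 3 or more on average. The first 3 places in the module by mean fall belong to them. 265837_at had signals of 65.3 to 429 (median 153) after high light and 1343 to 10710.3 (median 5147) without treatment, 262096_at had 1.91 to 14.9 (median 5.51) and 121 to 266 (median 192), and 257382_at had 3.51 to 750.4 (median 91) and 802 to 4255 (median 1671). These 3 had mean changes of -4.98, -4.82 and -4.80.

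How evenly a member fell over the genotypes varied. The range of the 5 changes had a median width of 0.94 log2 units and was under 1 in 39 members and over 2 in 2 members. It was widest in 257382_at (4.06), with changes of -5.18, -2.42, -6.48, -4.27 and -5.68. On high light arrays this probe set had 116, 750.4 and 399 in the overexpressor of WRKY40, 3.51, 6.22 and 50.1 in the knockout of WRKY63 and 6.75, 63.5 and 109 in Col-0. The replicates of each group differed several-fold, so the width rests on dim and variable signals. 265837_at (2.01) and 259244_at (1.95) followed, with changes of -4.14, -3.96, -5.20, -5.97 and -5.64 and of -2.46, -4.41, -3.11, -2.61 and -2.95. The narrowest ranges were those of 250412_at (0.22), 263548_at (0.23) and 267265_at (0.28). Of these, 263548_at had 4398 to 8258 (median 5929) after high light and 22276 to 29637 (median 25679) without treatment.

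The members nearest to the threshold on the fall were AT1G25230 with -2.01 in Col-0, and AT1G71970 with -2.01 and 254329_at with -2.02 in the WRKY40 overexpressor. Just outside it lay scpl35 and Fes1B, with -2.0 (above the threshold before rounding) and -1.98 in the WRKY40 knockout, and AT1G23390 with -1.98 in the WRKY63 overexpressor. At the level threshold AT2G16750 (7.06), AT3G62950 (7.09) and 262096_at (7.14) lay inside, and AT3G19660 (6.97), AT2G05160 (6.89) and AT5G45700 (6.80) outside. A further 37 probe sets met the level in every genotype and the fall in 4 of 5. The genotype that missed was the WRKY40 knockout for 15 of them, the WRKY40 overexpressor for 14, the WRKY63 knockout for 2, the WRKY63 overexpressor for 5 and Col-0 for 1.

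The members' position and company were then set beside the rule. Of the 32 named genes 15 (46.9%) lie on chromosome 3, where 20.5% of the genes named by kept probe sets lie, and 9 lie on chromosome 1, 3 on chromosome 2, 4 on chromosome 4 and 1 on chromosome 5. No test was made of this, since the annotation names only part of the members. AT1G19960 and TUB5 lie 5 genes apart, and AT3G15630 and AT3G15570 lie 8 genes apart. None of the 32 named genes was measured by more than 1 member. The array holds 1 other probe set of these genes, and its values are not given here.

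The members were also set beside 9 lists of genes of the clock, B-box factors, shade, auxin, cell wall loosening, sugar starvation, cytokinin, gibberellin and brassinosteroid programmes. Only the sugar starvation list, of genes known to be induced when sugar runs short, holds a member, AT3G62550, whose fall the rule required. This count follows from the genes left out by name. COR27 and AT4G33980 of the clock list and EXPA8 of the cell wall list also passed both thresholds. Of the 29 genes of the sugar starvation list 5 could be tested. Of the 4 that are no members 2 were called lower after high light in each genotype. The median change over all 5, that of AKINBETA1, was -1.38, -1.78, -1.80, -1.58 and -1.48. Over all kept probe sets the share called lower was 29%, 26.7%, 32.3%, 35.3% and 29%. The called genes besides the member were AKINBETA1, a subunit of the energy-sensing SnRK1 kinase, and AT3G15450, with -1.95, -2.82, -3.0, -1.87 and -3.19. AT5G19120 (-1.07 to 0.48) and EXO (0.39 to 1.68), linked to growth by brassinosteroids, were not called in any genotype.

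Of 28 clock genes 3 had a kept probe set. COR27 and AT4G33980, both left out of the module by name, fell by 3.98 and 4.94 in Col-0, while GI, a regulator of the evening phase, changed by -0.16 to 0.21 over the genotypes and was not called. In the cell wall list 10 of 29 genes were kept. There 2 were called lower and 1 higher in Col-0, where 29% and 14.9% of all kept probe sets were, and the median was -0.11. Those lower were EXPA8 (-4.12), left out of the module by name, and EXLB1 (-0.96). Over the genotypes the 5 medians lay between -0.35 and -0.11. No B-box factor was named. Of the shade list 2 of 14 genes were kept and 1 was called lower in Col-0, and of the auxin list 4 of 29 were kept, with 1 lower and 1 higher. The gene called lower is the same in both lists, IAA29 (-2.30 in Col-0). Of the cytokinin list 2 of 14 were kept and 1 was lower, of the gibberellin list 2 of 10 with 1 lower and 1 higher, and of the brassinosteroid list 1 of 8, which was lower.

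The lines were next compared with Col-0 in each light. These differences were not used by the rule, although the rule sets a floor to the untreated level and keeps out members with a small fall in any line. The response comparisons are differences of the changes that chose the members, so their values, counts and p-values are given as a description. The tests cover the 65 members that passed the filter, and differences are on the log2 scale with limma's standard error (SE). The model shares each probe set's spread between both lights. The members' median log2 SD within a group was 0.38 after high light and 0.22 without treatment. The SE and p of a member can therefore be too small after high light and too large without treatment. For a comparison within a light, a model of only the compared arrays does not share the spread between lights. For each call that a single array decides, the difference without that array is given. Calls that also ended with another pseudocount, filter or normalization, or in a model of only the compared arrays, are named. Over the 4 lines, both lights and the response to high light there were 12 comparisons, which share the Col-0 arrays. In all, 30 of the 65 members were called at least once by limma at an adjusted p under 0.05, and 35 were called in none, where 32.2% of all kept probe sets were called at least once. The plot of shares called sets the members beside all kept probe sets.

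**Figure D3:**
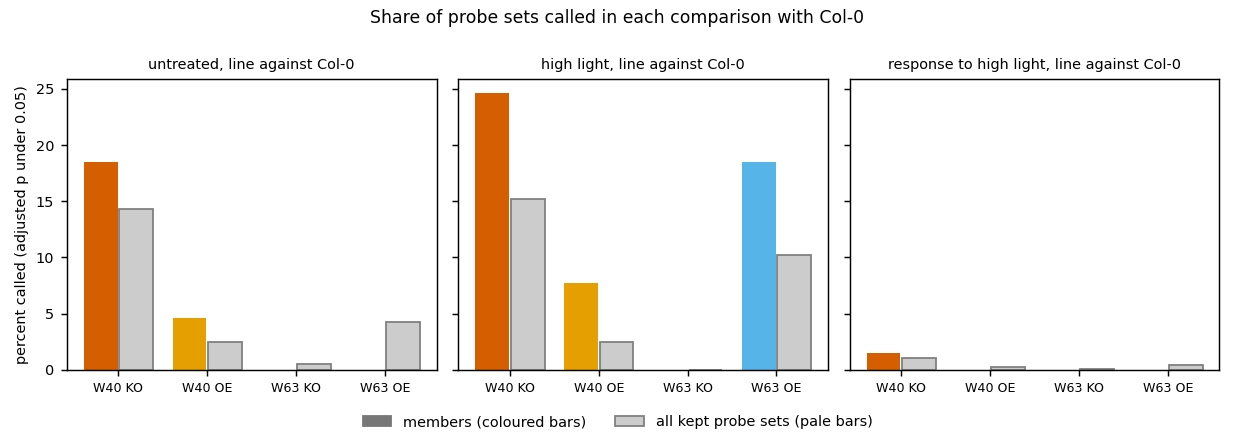
Percent of the 65 tested members (coloured bars) and of all 15922 kept probe sets (pale bars) called by limma in each comparison of a line with Col-0, without treatment, after high light and for the response to high light. The members' shares reach 24.6% for the WRKY40 knockout after high light, against 15.2% of all kept probe sets, and are 0 for the WRKY63 knockout in all 3 panels.

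Without treatment, 12 members differed in the WRKY40 knockout, 4 higher and 8 lower, where 6.86% and 7.4% of all kept probe sets were. That is 18.5% of the tested members, against 14.3% of all kept probe sets. The members' median difference was 0.02, and that of all kept probe sets 0.06. After high light 16 members differed, 11 higher and 5 lower (7.38% and 7.86% of all kept probe sets), or 24.6% of the members against 15.2% of all. Here the median was 0.31, against 0.05 over all kept probe sets. In all, 21 members were called in at least 1 light and 7 in both, against 22.5% and 7.02% of all kept probe sets. The summed signal of RCA and LHCB4.2 ran from 36707 to 47694 in the knockout after high light and from 40855 to 42633 without treatment, against 47538 to 52602 and 46971 to 59294 in Col-0. LHCB4.2 was called lower in both lights, and the part of this in the members' differences was not tested.

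The largest difference of any member was that of 245265_at, which has no gene name here. After high light the WRKY40 knockout had 60.1, 67.8 and 56 and the overexpressor had 463, 221 and 160.5. The WRKY63 knockout had 325, 519 and 445, its overexpressor 1479.6, 1064 and 2287 and Col-0 566, 365 and 505. Without treatment the WRKY40 knockout had 159.6, 338 and 294 and the overexpressor had 2224, 2579 and 2082. The WRKY63 knockout had 2688, 4068 and 5655, its overexpressor 8142, 10709 and 10297 and Col-0 4102, 6944 and 5921. In both lights all 3 WRKY40 knockout arrays lay below, and all 3 WRKY63 overexpressor arrays above, every array of the other genotypes. Untreated knockout plants thus had less signal than Col-0 plants after high light. The difference of the WRKY40 knockout from Col-0 was -2.93 ± 0.33 (adjusted p = 3.38e-07) after high light and -4.45 ± 0.33 (adjusted p = 1.98e-10) without treatment. The WRKY63 overexpressor differed by 1.70 ± 0.33 (adjusted p = 0.00151) after high light and, without a call, by 0.80 ± 0.33 (adjusted p = 0.195) untreated. The 3 calls held under every alternative. The WRKY40 overexpressor was also lower without treatment (-1.27 ± 0.33, adjusted p = 0.0345), a call lost without Col-0 untreated replicate 2 (-1.11) or 3 (-1.22) or WRKY40 overexpressor untreated replicate 1 (-1.25), 2 (-1.36) or 3 (-1.21). The response of the WRKY40 knockout, -2.02 against -3.55 in Col-0, did not pass the interaction test (1.53 ± 0.47, adjusted p = 0.149). The rule required both falls, and -2.02 lies just inside its threshold of -2, so nothing is read from this test.

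Other members that were lower in the WRKY40 knockout in both lights were 249850_at, 267364_at and 264482_at. 249850_at had 112, 117 and 114 in the knockout after high light, against 358, 309 and 248 in Col-0, and 1135, 972 and 918 untreated, against 3307, 2094 and 3839. The groups did not overlap in either light, and the differences were -1.39 ± 0.26 (adjusted p = 0.000332) after high light and -1.57 ± 0.26 (adjusted p = 8.01e-05) without treatment. 264482_at had 262, 204 and 178 in untreated knockout plants, against 481, 702 and 621 in untreated Col-0 (-1.48 ± 0.29, adjusted p = 0.000614), and differed by -0.94 ± 0.29 (adjusted p = 0.0262) after high light. The call after high light was lost without Col-0 high light replicate 1 (-0.80) or 3 (-0.77) or WRKY40 knockout high light replicate 2 (-0.78). On the compared arrays alone it was lost too. 267364_at differed by -1.09 ± 0.31 (adjusted p = 0.0174) after high light, a call lost without Col-0 high light replicate 3 (-0.93) or WRKY40 knockout high light replicate 1 (-0.91), and by -1.44 ± 0.31 (adjusted p = 0.00203) without treatment.

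Members higher in the WRKY40 knockout in both lights were AT1G25230, 267265_at and 267461_at. AT1G25230, a purple acid phosphatase, had 2844, 2850.0 and 2568 in untreated knockout plants, against 1630.2, 716 and 1343 in untreated Col-0, with no overlap (1.24 ± 0.24, adjusted p = 0.00063). After high light its difference was 0.82 ± 0.24 (adjusted p = 0.0211), a call lost without Col-0 high light replicate 2 (0.73) or 3 (0.77) or WRKY40 knockout high light replicate 1 (0.54). 267265_at had 507, 405 and 483 after high light, against 309, 227 and 204 in Col-0 (0.93 ± 0.22, adjusted p = 0.00339), and differed by 1.18 ± 0.22 (adjusted p = 0.000332) without treatment. 267461_at differed by 1.21 ± 0.33 (adjusted p = 0.0126) and 1.29 ± 0.33 (adjusted p = 0.00809). Its call ended after high light without Col-0 high light replicate 3 (1.05) or WRKY40 knockout high light replicate 2 (0.82), and in untreated plants without WRKY40 knockout untreated replicate 2 (1.01).

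Other members differed in the WRKY40 knockout in 1 light. DRT100 had 1419.9, 631 and 1154 in the knockout after high light, against 524, 265 and 393 in Col-0. All 3 knockout arrays lay above the Col-0 arrays, and the difference was 1.41 ± 0.22 (adjusted p = 4.1e-05). AT4G28240 (1.19 ± 0.30, adjusted p = 0.00753), 256091_at (0.83 ± 0.16, adjusted p = 0.000498) and 266873_at (0.91 ± 0.22, adjusted p = 0.00537) were also higher after high light, and all 4 calls held under every alternative. 255774_at (0.83 ± 0.26), 251169_at (0.69 ± 0.23), 250268_s_at (0.50 ± 0.15) and AT3G02640 (0.67 ± 0.22) were higher too. On the compared arrays alone 251169_at, 250268_s_at and AT3G02640 lost their calls. With no filter 251169_at and AT3G02640 lost theirs. A pseudocount of 16 also ended the call of 251169_at, and quantile normalization that of AT3G02640. The call of 255774_at was lost without Col-0 high light replicate 2 (0.88) or 3 (0.73) or WRKY40 knockout high light replicate 1 (0.79) or 3 (0.81). That of 251169_at was lost without Col-0 high light replicate 2 (0.71) or 3 (0.52) or WRKY40 knockout high light replicate 2 (0.54) or 3 (0.66). That of 250268_s_at was lost without Col-0 high light replicate 2 (0.31) or 3 (0.53) or WRKY40 knockout high light replicate 1 (0.40) or 3 (0.50), and that of AT3G02640 was lost without Col-0 high light replicate 1 (0.44) or WRKY40 knockout high light replicate 1 (0.62) or 3 (0.62).

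Without treatment AT1G71970 was higher in the WRKY40 knockout (0.79 ± 0.20, adjusted p = 0.00798), and the call was lost without WRKY40 knockout untreated replicate 1 (0.70). AT1G19960, the named gene of unknown role with the deepest fall, was lower, at 4103, 4554 and 5185 against 7621, 11182 and 8635 in Col-0 (-0.97 ± 0.31, adjusted p = 0.0334), and the call was lost without Col-0 untreated replicate 2 (-0.82) or 3 (-1.01) or WRKY40 knockout untreated replicate 1 (-0.89) or 2 (-0.97). The TIR-NBS gene AT3G04210 was lower (-1.29 ± 0.35, adjusted p = 0.0114), a call lost without Col-0 untreated replicate 2 (-1.16). AT1G19960 and AT3G04210 also lost their calls without the 2 arrays with the highest ratio of actin 3' to 5' signals. These were Col-0 untreated replicate 2 and WRKY63 overexpressor high light replicate 3. 256299_at was lower (-1.70 ± 0.48, adjusted p = 0.017), a call lost without Col-0 untreated replicate 1 (-1.63) or WRKY40 knockout untreated replicate 1 (-1.66). AT3G56060 was lower (-0.81 ± 0.21, adjusted p = 0.00986), a call lost without WRKY40 knockout untreated replicate 1 (-0.72).

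Limma called the response to high light different from Col-0 for 1 member in the WRKY40 knockout. That is 1.54% of those tested, against 1.03% of all kept probe sets. The falls that chose the members enter this call, so its p is a description and no independent test. The member called, AT2G39920, belongs to the HAD acid phosphatases. After high light the WRKY40 knockout had 119.6, 160.4 and 143 and the overexpressor had 275, 406 and 377. The WRKY63 knockout had 216, 217 and 332, its overexpressor 146, 144 and 114 and Col-0 318, 218 and 284. Without treatment the WRKY40 knockout had 1445, 1604 and 1524 and the overexpressor had 1457, 1611 and 1694. The WRKY63 knockout had 1306, 1451 and 1460.0, its overexpressor 1355, 1192 and 1371 and Col-0 1469, 1288 and 1288. Untreated levels overlapped, while after high light the WRKY40 knockout and the WRKY63 overexpressor lay below all arrays of the other 3 genotypes. The change was -3.44 in the WRKY40 knockout, against -2.31 in Col-0, a difference of -1.12 ± 0.24 (adjusted p = 0.0147). Without Col-0 high light replicate 1 it was -1.0 (adjusted p = 0.0503). After high light AT2G39920 was lower than in Col-0 in the WRKY40 knockout (-0.94 ± 0.17, adjusted p = 0.000202) and in the WRKY63 overexpressor (-1.01 ± 0.17, adjusted p = 0.000316), and both calls held under every alternative. The response of the WRKY63 overexpressor did not pass the test (-0.96 ± 0.24, adjusted p = 0.0657).

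**Figure D4:**
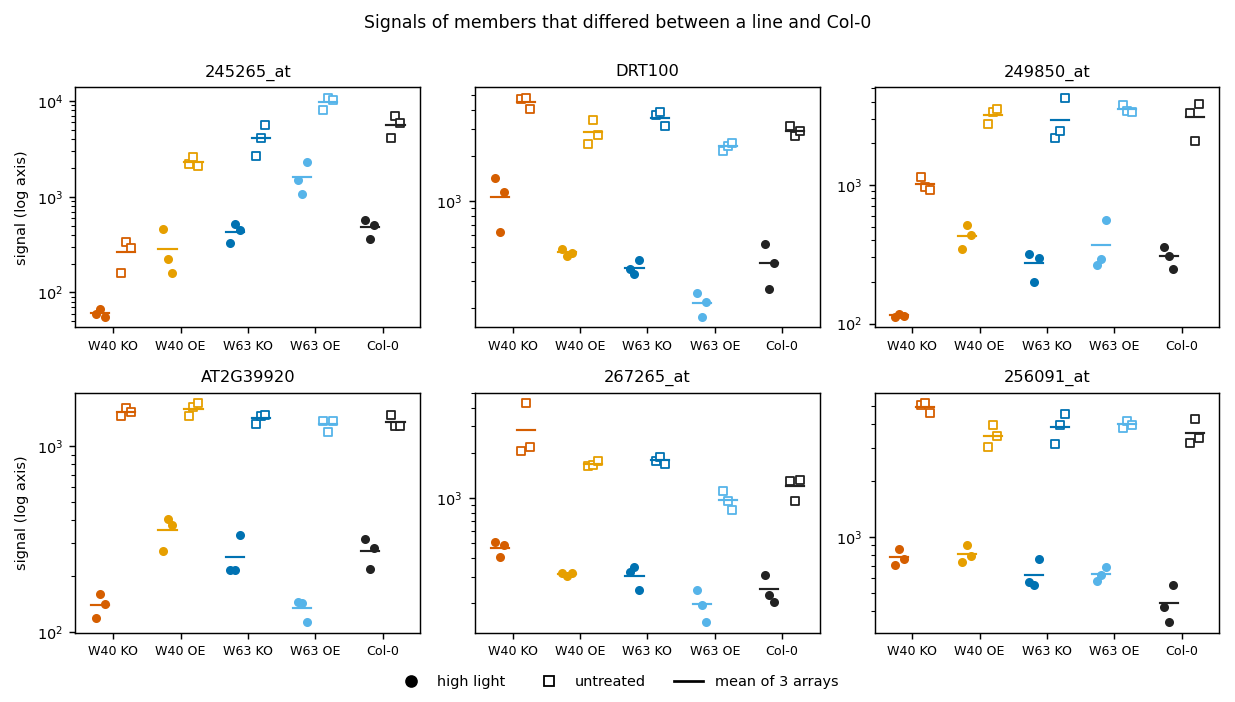
Signal (log axis) on every array of the 6 members with the smallest adjusted p in a comparison of a line with Col-0 within a light. Genotypes run from the lines to Col-0, filled circles are high light, open squares are untreated, and the line is the mean of 3 arrays. 245265_at is lowest in the WRKY40 knockout and highest in the WRKY63 overexpressor in both lights, and DRT100 in the WRKY40 knockout is highest after high light.

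In the WRKY40 overexpressor 3 members were lower without treatment and 0 higher (1.82% and 0.628% of all kept probe sets), or 4.62% of the tested members against 2.45% of all kept probe sets. Each of these calls was lost on leaving out at least 1 array. All 3 were also lost without the 2 arrays with the highest actin ratio. 265837_at stood at 2466, 1606 and 1343, against 4536, 8584 and 6567 in Col-0, without overlap. Its difference was -1.86 ± 0.48 (adjusted p = 0.0308), and the call was lost without Col-0 untreated replicate 2 (-1.64) or 3 (-1.84) or WRKY40 overexpressor untreated replicate 2 (-1.80) or 3 (-1.67). AT3G56060 differed by -0.83 ± 0.21 (adjusted p = 0.0304), a call lost without Col-0 untreated replicate 1 (-0.84), 2 (-0.80) or 3 (-0.86) or WRKY40 overexpressor untreated replicate 2 (-0.80) or 3 (-0.74). The remaining call was that of 245265_at, given above.

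After high light 4 members were higher and 1 lower in the WRKY40 overexpressor (1.32% and 1.12% of all kept probe sets), or 7.69% against 2.44% of all kept probe sets. AT4G30650, whose array values are given above, was higher by 1.17 ± 0.21 (adjusted p = 0.00201), and this call held under every alternative. The calls of the other members were lost on the compared arrays alone. BZIP61 also lost its call with a pseudocount of 16 or quantile normalization. With quantile normalization 257382_at lost its call too, and with no filter 257382_at and 256299_at did. 256091_at had 734, 907 and 785 in the overexpressor, against 421, 352 and 552 in Col-0 (0.89 ± 0.16, adjusted p = 0.00192), and the call was lost on the compared arrays alone (adjusted p = 0.0742). BZIP61 had 44, 128 and 79.6, against 17.1, 46.4 and 29.4, with overlap (1.39 ± 0.35, adjusted p = 0.0307), and the call was lost without Col-0 high light replicate 1 (1.03) or 3 (1.41) or WRKY40 overexpressor high light replicate 2 (1.02) or 3 (1.36). 257382_at was higher (3.10 ± 0.83, adjusted p = 0.0435), a call lost without Col-0 high light replicate 1 (1.96) or 2 (3.48) or WRKY40 overexpressor high light replicate 2 (2.50) or 3 (2.96). 256299_at was lower (-1.77 ± 0.48, adjusted p = 0.0485), a call lost without Col-0 high light replicate 1 (-1.56), 2 (-2.01) or 3 (-1.74) or WRKY40 overexpressor high light replicate 2 (-1.14) or 3 (-1.66).

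The response of the WRKY40 overexpressor differed from that of Col-0 for 0 of 65 members by limma, against 0.22% of all kept probe sets. The closest was 256091_at, with 0.94 ± 0.23 (adjusted p = 0.0722). In the fitted responses 47 of 65 members had a positive difference from Col-0, that is a smaller fall, in the WRKY40 overexpressor, and 50 in the WRKY40 knockout. This was 72.3% and 76.9% of the members, against 49.9% and 48.7% of all kept probe sets. The median difference in response was 0.24 and 0.29, against -0.0011 and -0.011 over all kept probe sets. With quantile normalization the counts were 44 and 48, and the medians 0.17 and 0.26. Both lines are set against the same Col-0 arrays, and 1 of these differences was called, that of AT2G39920, which ran the other way. In the WRKY63 knockout and overexpressor 53.8% and 56.9% of the members had a positive difference, against 43.1% of all kept probe sets in each. The falls that chose the members enter these signs, and members are not replicates, so nothing is read from the shares.

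No member was called in the WRKY63 knockout. Limma called 0 without treatment, after high light and for the response, against 0.502%, 0.0251% and 0.113% of all kept probe sets. The members' median difference was 0.10 in untreated plants and 0.10 after high light, against 0.04 and -0.01 over all kept probe sets.

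In the WRKY63 overexpressor 0 members were called without treatment, against 4.26% of all kept probe sets. On the compared arrays alone 5 members were called, so the count of 0 depends on the arrays that enter the model. The share of all kept probe sets called in that smaller model is not given here. After high light 12 members were called, 4 higher and 8 lower (5.49% and 4.69% of all kept probe sets), or 18.5% against 10.2% of all. The members' median difference there was -0.02, and -0.06 over all kept probe sets. Replicate 3 of this group stood apart. The members' signals on it lay 0.44 log2 units above their group mean in the median, and those on replicate 2 lay 0.27 below. Replicate 3 also had a high log2 ratio of actin 3' to 5' signals, which can rise when RNA is degraded. At 2.32 it was the second highest of the 30 arrays, after Col-0 untreated replicate 2 (2.35). The part of replicate 3 in the calls is given by the values without it.

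**Figure D5:**
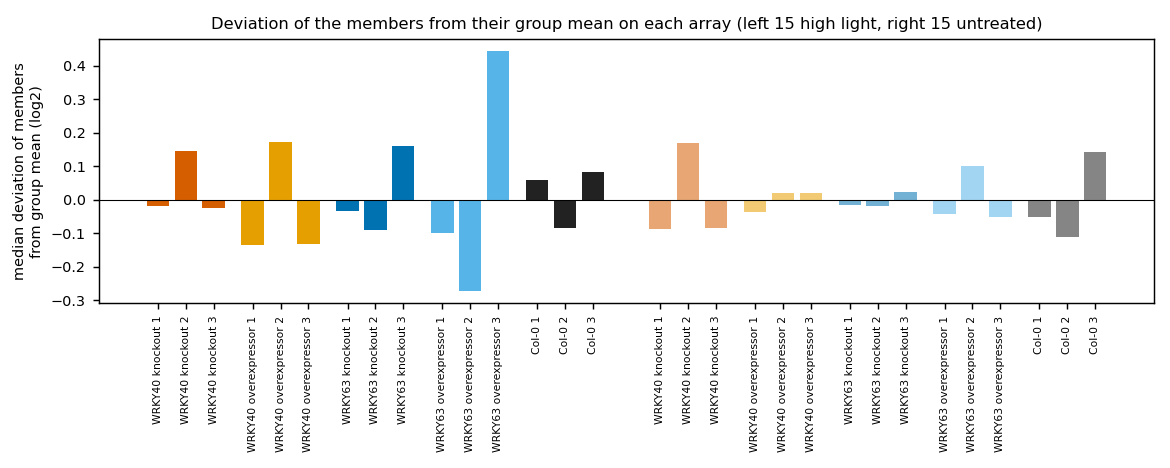
Median over the 67 members of the deviation of log2(signal + 1) from the group mean (y axis) on each of the 30 arrays, with the 15 high light arrays on the left and the 15 untreated arrays in paler colours on the right. Replicate 3 of the WRKY63 overexpressor after high light stands highest at 0.44 and replicate 2 of that group lowest at -0.27.

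Besides 245265_at and AT2G39920, which are described above and held without replicate 3, 10 members were called in the WRKY63 overexpressor after high light. On the compared arrays alone all 10 lost the call, and 256091_at lost it with quantile normalization too. AT3G02640 had 77.9, 76.2 and 45, against 90.9, 153 and 142 in Col-0 (-0.95 ± 0.22, adjusted p = 0.00671), and the call was lost without WRKY63 overexpressor high light replicate 3 (-0.70). TUB5 had 514, 346 and 435, against 606, 668 and 592 in Col-0 (-0.54 ± 0.13, adjusted p = 0.00998), and the call was lost without WRKY63 overexpressor high light replicate 2 (-0.39). Neither pair of groups overlapped. 267461_at was higher (1.36 ± 0.33, adjusted p = 0.00946), a call lost without WRKY63 overexpressor high light replicate 3 (1.08). 256091_at was higher (0.54 ± 0.16, adjusted p = 0.0322), a call lost without Col-0 high light replicate 1 (0.51) or 2 (0.38) or WRKY63 overexpressor high light replicate 2 (0.54) or 3 (0.47).

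The NPH3 family gene AT3G19850 had 50.1, 7.63 and 8.68 in the WRKY63 overexpressor, against 55, 42.7 and 47.7 in Col-0. Its first array lay within the Col-0 range and the other 2 far below, and the difference of -1.60 ± 0.40 (adjusted p = 0.0105) lost its call without WRKY63 overexpressor high light replicate 2 (-1.15) or 3 (-1.23). DRT100 was lower, at 251, 176 and 220.4 against 524, 265 and 393 (-0.82 ± 0.22, adjusted p = 0.0166), and the call was lost without Col-0 high light replicate 1 (-0.59) or 3 (-0.80) or WRKY63 overexpressor high light replicate 2 (-0.69). CCL was higher (0.76 ± 0.23, adjusted p = 0.0364), a call lost without Col-0 high light replicate 1 (0.76), 2 (0.77) or 3 (0.76) or WRKY63 overexpressor high light replicate 3 (0.40).

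The remaining 3 were lower. 260221_at differed by -1.37 ± 0.35 (adjusted p = 0.0132), a call lost without Col-0 high light replicate 1 (-1.16) or WRKY63 overexpressor high light replicate 2 (-1.18) or 3 (-1.09). 253480_at differed by -0.73 ± 0.20 (adjusted p = 0.0192), a call lost without Col-0 high light replicate 1 (-0.71) or 2 (-0.58) or WRKY63 overexpressor high light replicate 1 (-0.69) or 3 (-0.70), and 250268_s_at differed by -0.49 ± 0.15 (adjusted p = 0.0396), a call lost without Col-0 high light replicate 1 (-0.34) or 3 (-0.46) or WRKY63 overexpressor high light replicate 2 (-0.47) or 3 (-0.36). The response of this line to high light differed from Col-0 for 0 of 65 members by limma, against 0.415% of all kept probe sets.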

How the data were processed

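Total RNA from leaves of 5 genotypes, after high light or untreated, was hybridised to 30 ATH1 arrays. The authors deposited 1 signal intensity per probe set, made with MAS5 per the submitters' processing notes (version not given in the sources used here). The deposited intensity had a mean of 500.045 to 500.058 on every array once 2% of probe sets were trimmed at each end, so arrays were scaled to a common mean. Depth is not defined for arrays, and 3 per group limit the precision. Detection calls were not used here.

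In R 4.3.3 with limma 3.58.1, 64 control probe sets were left out, 1 was added, log2 was taken, and 15922 probe sets at or above the 30th percentile of mean log2 signal (46.7) were kept. A model with 1 mean per group, 10 in all, used every array, with empirical Bayes moderation and a variance trend, and calls were made at a Benjamini-Hochberg adjusted p under 0.05 over all kept probe sets. The steps were tested on simulated data, with line differences planted only in the untreated WRKY40 knockout. The simulation gave each probe set the same spread in both lights, so it did not check a spread that differs between lights.

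Named with values are the 12 named genes with the largest mean fall, up to 3 higher and 3 lower called members per comparison, the 3 widest and 3 narrowest ranges, the 3 probe sets on each side of both thresholds, list members and neighbours, and further members in groups of shared role. The other called members were named after their values were seen. The members and gene lists were chosen with earlier results of these data known. Names came from the platform annotation, and gene order came from the TAIR10.1 table. Sequences are not used here. Alternatives were a pseudocount of 16, other filters, quantile normalization, the compared arrays alone, a replicate block, and leaving out single arrays or those with high actin ratios.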

Additional observations from a re-analysis of the deposited data

Results flagged for a closer look

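The response of AT2G39920 to high light was larger in the WRKY40 knockout than in Col-0, by -1.12 on the log2 scale (limma interaction, adjusted p = 0.0147), with a change of -3.44 in the knockout and -2.31 in Col-0. It was the only response called among the 65 members over 4 lines. Both changes entered the rule that chose the members, so this p is a description and no independent test. All 3 knockout arrays after high light lay below the Col-0 arrays, while untreated arrays overlapped. The call ended on leaving out Col-0 high light replicate 1 (-1.0, adjusted p = 0.0503). No cause was tested.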

How the results depend on the processing

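Of 49 called differences between a line and Col-0, 17 kept the call under every alternative, 31 lost it on leaving out 1 array, and 0 changed sign. Without 1 array the number of members called ran from 9 to 12 for the untreated WRKY40 knockout, from 9 to 14 after high light and from 0 to 2 for its response. For the WRKY40 overexpressor it ran from 0 to 4, 2 to 9 and 0 to 1, and for the WRKY63 overexpressor from 0 to 0, 6 to 17 and 0 to 1. For the WRKY63 knockout it stayed at 0 in all 3. The share of all kept probe sets called under each alternative is not given here or below. These counts therefore do not tell a change in the members from one in all probe sets. The rule itself found 61 to 71 probe sets without 1 array, 56 with a pseudocount of 16 and 59 with quantile normalization, 58 of them members.

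For the untreated WRKY40 overexpressor 5 members were called with a pseudocount of 16, 6 on the compared arrays alone, and 1 without the 2 arrays with the highest actin ratio (Col-0 untreated replicate 2 and WRKY63 overexpressor high light replicate 3). After high light the counts were 3 with no filter, 1 on the compared arrays alone, 8 without those 2 arrays and 3 without the 2 arrays (Col-0 and WRKY63 overexpressor high light replicate 3) highest on the older actin probe sets, a choice made after seeing the data. On the compared arrays alone 1 member was called for the untreated WRKY63 knockout, 5 for the untreated WRKY63 overexpressor, and 2 for that overexpressor after high light. The untreated WRKY63 overexpressor had 1 without the arrays highest on the older actin probe sets, and after high light it had 7 without either pair of arrays. For the response of the WRKY40 overexpressor, 1 member was called without the older pair, and 1 with the replicate number as a block. The block changed no other count by over 1.5 times. The labels do not tie arrays by number. Deviations of same-numbered arrays correlated at -0.13 to 0.32, over 0.1 in 11 of 24 pairs of a line with Col-0 within a light (7 of 8 with number 1) and in 1 of 15 pairs of both lights of a genotype. Of the 24 line arrays, 14 correlated best with the Col-0 array of their number, a hint from the data and not from the design. The cause of these shifts was not tested. Signals near the bottom of the range limit the members that end dim after high light.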
